A study of Mus musculus with 248 samples.

Results

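The T cell genes are 36 genes, chosen by name, that code for the receptor of T lymphocytes, its coreceptors, costimulatory and other surface proteins, the kinases and adaptors that carry its signal, and transcription factors of T cells. All 36 were measured among the 18508 genes of the training cohort and the 13607 genes of the validation cohort. They were followed in blood RNA of a mouse leukemia model, by cohort, arm and time.

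T cells recognise antigen through a receptor whose variable chains are carried to the surface and coupled to the inside of the cell by the CD3 chains and the zeta chain. CD4 marks helper T cells and CD8 marks cytotoxic T cells, and each coreceptor brings the kinase Lck to the receptor. In blood, T cells are one of several lymphocyte populations beside B cells and NK cells, and FOXP3 marks the regulatory subset that restrains immune responses.

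CM mice carried a conditional Cbfb-MYH11 knock-in allele together with the transgene Mx1-Cre (Cbfb+/56M/Mx1-Cre, on C57BL/6), so that the fusion of the core binding factor subunit Cbfb with the myosin Myh11 forms once Cre is induced. Ctrl mice were littermates, either wild type or carrying the Cbfb+/56M allele or Mx1-Cre alone, and they were treated in the same way. Mice of both sexes received poly(I:C), an inducer of interferon and through it of the Mx1 promoter, at 14 mg/kg every other day for 7 doses, starting at 4 to 8 weeks of age. The Mx1 promoter is active in many interferon-responsive cells, T cells among them, so the allele is not limited to leukemic precursors by the design. Blood for month 0 was taken before induction in every mouse, and the tissue is given as peripheral blood mononuclear cells. A leukemia library (L) is one from a mouse in which blasts with surface cKit exceeded 20%.

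In the training cohort 55 libraries came from 7 CM mice and 77 from 7 Ctrl mice. In the validation cohort 68 came from 13 CM mice and 48 from 8 Ctrl mice. Among the validation mice, 10 CM and 6 Ctrl were sampled monthly, and 6 of these CM mice gave an L library. A training library held 16 to 36.3 M reads in genes and a validation library 8.68 to 34.4 M. Values are log2 CPM (reads of a gene per M reads of the library, on a log2 scale), and the cohorts were normalised apart, with different library kits, so levels were compared within a cohort. A gene passed the test at an adjusted p under 0.05 in limma, with Benjamini-Hochberg adjustment over all genes of the table. Replicates are separate mice.

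The genes of the CD3 chains lie side by side on chromosome 9 of GRCm38.p6, with Cd3g (ENSMUSG00000002033) at chr9:44969572-44980431, Cd3d (ENSMUSG00000032094) at chr9:44981769-44987052 and Cd3e (ENSMUSG00000032093) at chr9:44998735-45009663. The zeta chain gene Cd247 (ENSMUSG00000005763) lies at chr1:165779952-165871153. Promoter windows of 250 bases before to 50 bases after the transcript start were taken from RefSeq on GRCm38.p6. There were 43 such windows for 26 of the 36 genes. The 3 windows below belong to a receptor chain, to the signalling gene with the largest mean fall in leukemia, and to an adaptor that rose. Capitals mark matches to the RUNX core TGTGGT or to the core CTTTGA of the TCF and LEF factors, each searched on both strands, and no match of one motif overlaps one of another in these windows.
Cd3d, chr9:44981536-44981835, plus strand: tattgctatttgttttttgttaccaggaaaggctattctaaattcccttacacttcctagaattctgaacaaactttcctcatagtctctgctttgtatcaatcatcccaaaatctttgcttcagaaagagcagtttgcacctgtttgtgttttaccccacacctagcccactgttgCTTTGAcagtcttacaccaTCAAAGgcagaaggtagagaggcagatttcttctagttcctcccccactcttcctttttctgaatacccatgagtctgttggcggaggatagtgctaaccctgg
Trat1, chr16:48772013-48772312, minus strand: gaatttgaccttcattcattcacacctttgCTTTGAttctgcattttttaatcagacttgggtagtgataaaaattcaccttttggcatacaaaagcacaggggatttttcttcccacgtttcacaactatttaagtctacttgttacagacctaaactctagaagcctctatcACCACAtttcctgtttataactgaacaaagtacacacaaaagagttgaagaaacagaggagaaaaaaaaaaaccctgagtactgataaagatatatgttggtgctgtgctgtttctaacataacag
Lat, chr7:126369519-126369818, minus strand: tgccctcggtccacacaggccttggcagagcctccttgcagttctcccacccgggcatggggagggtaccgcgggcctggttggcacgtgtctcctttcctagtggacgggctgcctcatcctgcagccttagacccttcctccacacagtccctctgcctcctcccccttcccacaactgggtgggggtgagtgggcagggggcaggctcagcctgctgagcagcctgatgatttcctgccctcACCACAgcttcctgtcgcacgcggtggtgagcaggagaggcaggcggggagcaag
The Cd3d window held 2 TCF and LEF matches and no RUNX match, that of Trat1 held 1 of each, and that of Lat held 1 RUNX match. Over all members, 6 of 43 windows (14.0%) held the RUNX core on either strand, against 16.8% of all 32851 windows. The TCF and LEF core was in 10 member windows (23.3%), against 16% of all windows, and the GATA motif AGATAA, on either strand, in 5 (11.6%), against 11.2%. A match is only a description of these letters.

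In leukemia, the T cell genes fell together, with 4 exceptions that rose. In the L libraries of 6 validation mice, compared with month 0 of the same mice, 31 of the 36 genes fell and 4 rose. Over all genes tested, 33% were called lower and 31.4% higher. The median log2 change of the 36 genes was -2.05, against -0.04 for all genes. In bulk blood, fewer T cells and less of these RNAs per T cell cannot be told apart. Because CPM is a share of each library, a fall here is also relative to all other RNA in the blood.

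All 4 genes of the receptor complex fell. Cd3e, which codes for a CD3 chain, had 2.46, 2.78, 1.42, 1.13, 1.90 and 3.71 log2 CPM in the L libraries of mice 2684, 2690, 2708, 2718, 2719 and 2731, against 4.54, 4.53, 3.97, 4.22, 4.28 and 3.46 log2 CPM at month 0 in the same order. The L library was the lower one in 5 of 6 mice, and mouse 2731 was the exception. The log2 change of Cd3e was -1.93 ± 0.40 (SE, n = 6 mice, limma adjusted p = 0.0031). Cd3d changed by -2.55 ± 0.34, Cd3g by -2.42 ± 0.34 and the zeta chain gene Cd247 by -1.81 ± 0.23. The receptor genes of the constant region were measured in part, at 3 of the 7 listed, and Trbc2, Trbc1 and Trac fell by 2.44, 2.39 and 1.90 on the log2 scale.

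The 3 coreceptor genes fell as well. Cd4 had 2.43, 3.48, 2.88, 2.79, 3.03 and 5.21 log2 CPM in the L libraries, against 6.29, 6.53, 5.60, 5.85, 6.12 and 6.03 log2 CPM at month 0, in the same order of mice. All 6 mice had less Cd4 in leukemia, and mouse 2731 had the smallest difference. Cd4 changed by -2.77 ± 0.34 (SE, limma adjusted p = 0.0002). Cd8a had 4.12, 4.79, 3.52, 3.64, 4.34 and 5.81 log2 CPM in the L libraries, against 6.04, 6.28, 5.16, 5.69, 5.84 and 4.93 log2 CPM at month 0. It was lower in 5 of 6 mice, with a change of -1.29 ± 0.36 (SE, limma adjusted p = 0.0125), and Cd8b1, the other CD8 chain, changed by -1.2 ± 0.34.

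All 9 costimulatory and surface genes fell. The ligand gene Cd40lg, through which helper T cells license B cells, changed by -3.73 ± 0.86, a fitted value that depends on the prior because the L library of mouse 2718 had 0 reads. Cd2, an adhesion receptor, changed by -2.91 ± 0.19, Cd6 by -2.80 ± 0.34, the costimulatory receptor Cd28 by -2.60 ± 0.28 and the interleukin 7 receptor chain Il7r by -1.61 ± 0.25. Thy1 had the smallest change of the 9, at -1.12 ± 0.43 (SE, limma adjusted p = 0.047).

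The signalling genes divided. Of 12, 9 fell, 2 rose and 1 did not pass the test. The receptor-associated adaptor Trat1 changed by -3.51 ± 0.57, the kinase Zap70, which binds the phosphorylated receptor chains, by -3.07 ± 0.39, and the kinase Lck by -2.76 ± 0.32. The mean of Trat1 rests in part on mouse 2718, whose L library stood low at -3.17 log2 CPM. Its difference was -6.67 in that mouse and between -3.85 and -1.84 in the others. Lat, the adaptor on which the receptor signal is assembled, had 7.83, 7.84, 8.23, 7.91, 7.92 and 7.18 log2 CPM in the L libraries, against 6.39, 6.47, 5.78, 6.32, 6.49 and 5.90 log2 CPM at month 0. The groups did not overlap for Lat, and the change was 1.59 ± 0.16 (SE, limma adjusted p = 6.9e-05). Prkcq, which codes for protein kinase C theta, had 8.23, 7.67, 7.76, 8.16, 7.93 and 7.89 log2 CPM in the L libraries, against 7.08, 7.07, 6.66, 6.99, 7.05 and 6.80 log2 CPM at month 0. It was likewise higher in every L library, by 1.0 ± 0.11 on the log2 scale. The kinase gene Fyn, which is used in many cell types, had a change of 0.01 ± 0.11 and was the 1 member that did not pass.

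Among the 5 transcription factors, 4 fell and Gata3 rose. Satb1, a chromatin organiser of T cells, had 5.93, 5.65, 4.47, 4.99, 5.56 and 7.09 log2 CPM in the L libraries, against 9.05, 9.11, 8.70, 8.93, 8.86 and 8.58 log2 CPM at month 0. The groups were far apart, with a change of -3.26 ± 0.31. Lef1, Bcl11b and Tcf7, factors of T cell development, changed by -2.48 ± 0.39, -1.86 ± 0.37 and -1.66 ± 0.37. Gata3, a factor of helper T cells that other blood cells also use, had 5.18, 2.53, 3.55, 4.57, 3.44 and 4.53 log2 CPM in the L libraries, against 2.67, 2.93, 2.43, 2.62, 2.60 and 2.01 log2 CPM at month 0. Gata3 was higher in leukemia in 5 of 6 mice, with mouse 2690 the exception, and changed by 1.42 ± 0.39 (SE, limma adjusted p = 0.0121).

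The 3 genes of regulatory T cells did not move together. Foxp3, the defining factor of these cells, had 1.17, 0.91, 0.89, -0.07, 0.31 and 1.83 log2 CPM in the L libraries, against 2.07, 1.75, 1.52, 1.91, 1.78 and 1.97 log2 CPM at month 0. It was lower in every mouse and changed by -0.99 ± 0.32 (SE, limma adjusted p = 0.025). Il2ra, the interleukin 2 receptor chain, changed by -1.41 ± 0.45. Ikzf2, which codes for the factor Helios, had 10.07, 9.67, 10.02, 9.53, 9.76 and 9.72 log2 CPM in the L libraries, against 4.67, 4.69, 4.73, 4.57, 4.76 and 4.99 log2 CPM at month 0. It was the member with the largest change in either direction, at 5.06 ± 0.11 (SE, limma adjusted p = 7.1e-08), with no overlap between the groups.

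**Figure D1:**
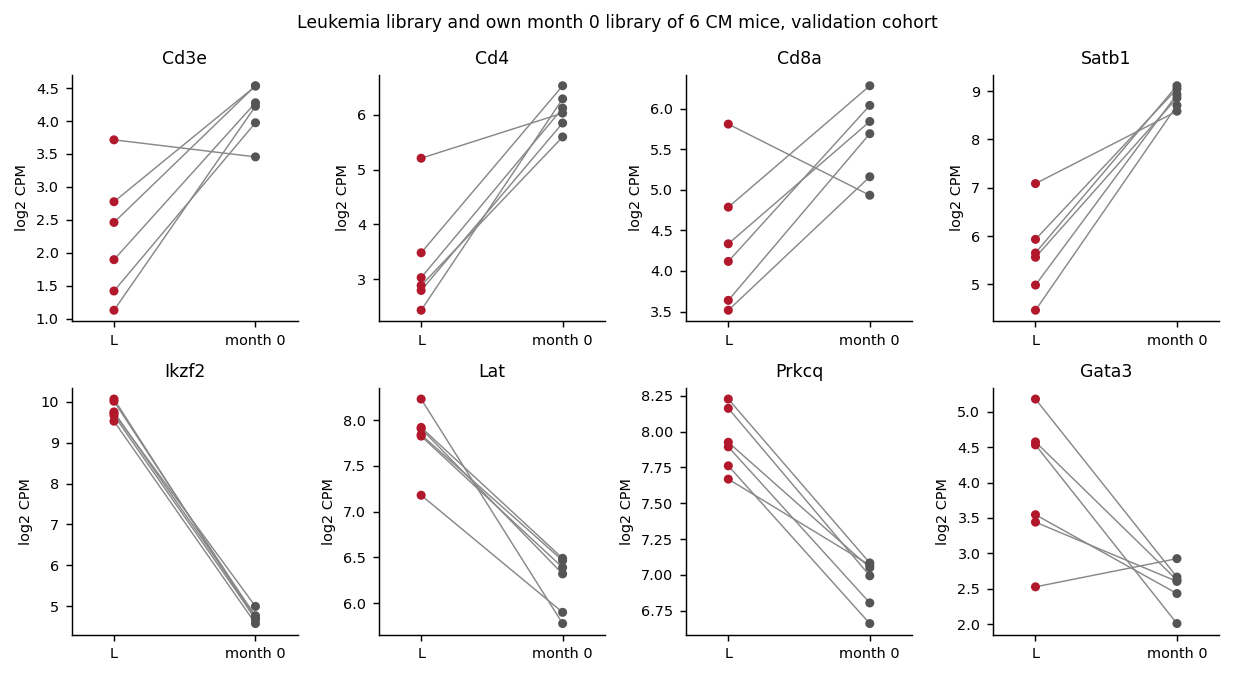
Log2 CPM of 8 T cell genes in the leukemia libraries (left, red) and the month 0 libraries (right, dark grey) of the same 6 validation mice, with a line for each mouse. Cd3e, Cd4, Cd8a and Satb1 lie lower in leukemia in at least 5 of 6 mice, and Ikzf2, Lat and Prkcq lie higher in 6 of 6.

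Mouse 2731 moved least. In it 24 of the 36 genes were lower in leukemia than at month 0, with a median difference of -0.40, while in the other mice 31 or 32 were lower, with medians between -2.61 and -2.23. The month 0 library of this mouse also did not match its sex label. Without mouse 2731, 31 genes fell and 4 rose, with a median of -2.41. Compared with month 1 instead, mouse 2731 had 33 of 36 genes lower, with a median of -1.80. In that comparison 31 of the 36 genes fell and 3 rose (34.1% and 29.2% of all genes), with Cd3e at -2.77 ± 0.30, Cd4 at -3.60 ± 0.25 and Ikzf2 at 3.51 ± 0.18, and Gata3 at 0.59 ± 0.33 did not pass.

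Marker genes of other blood cells moved in the same libraries. The summed CPM of the receptor complex genes had a lowest, median and highest value of 30.6, 47.2 and 124.2 in L libraries, against 170, 231 and 317 in the 10 CM libraries of month 0. The B cell list summed to 144, 278 and 638 in L libraries, against 4941, 7544 and 10235 at month 0, and all 12 of its genes fell. The NK cell list summed to 32.1, 41.6 and 99.9 in L libraries, against 408, 657 and 1034 at month 0, and all 10 fell. The mast cell and basophil list summed to 6454, 10192 and 14842 in L libraries, against 101.5, 163 and 359 at month 0 (5 of 7 rose), and the progenitor list to 714, 1660 and 3218 in L libraries, against 27.3, 44.8 and 53.1 at month 0 (6 of 7 rose and 1 fell). Per mouse, the median log2 change of the summed CPM was -2.32 for the receptor complex, -4.78 for B cells and -4.20 for NK cells. The ratio of receptor complex to B cell CPM was higher in leukemia in 6 of 6 mice. Their part in the T cell gene changes was not tested. By the labels, the L, month 0 and month 1 libraries were all unstranded but were sequenced in 3 different runs. The L libraries were also later bleeds of the same mice, with no Ctrl change over the same time set beside them. Run, elapsed time and leukemia therefore cannot be told apart in these comparisons.

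Set against the mean of the 4 receptor complex genes in the same library, 9 of the other 32 members were called higher in leukemia and 4 lower, where 75.4% of all genes were called higher and 7.26% lower. Relative to the receptor genes Ikzf2 was 7.24 higher on the log2 scale, Lat 3.77, Gata3 3.60, Prkcq 3.18 and Fyn 2.19. Foxp3, Thy1, Cd8b1 and Cd8a were 1.19, 1.06, 0.98 and 0.89 higher, and Cd40lg, Trat1, Satb1 and Zap70 were 1.55, 1.33, 1.08 and 0.89 lower. In this fit the spread was taken from the trend across genes alone, so sizes are given without p. The counts called in it rest on that same spread and not on each gene's own spread between mice.

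The other genes of the pathway followed the members. Of 20 further receptor signalling genes, 14 fell and 1 rose in leukemia. Of 10 genes of recirculation and T cell subsets, 9 fell, among them the homing receptor Ccr7 at -3.64 and the subset factor Tbx21 at -3.65.

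T cell genes also fell in the training cohort, in the last library of each CM mouse, taken at months 4 to 10 and compared with month 0 of the same 7 mice, although the labels mark no training library as leukemia. There 30 of the 36 genes fell and 2 rose, where 35.9% of all genes were called lower and 10.1% higher. The median log2 change was -1.90 for the members and -0.57 for all genes. Cd3e had 4.08, 5.62, 4.37, 4.82, 5.62, 5.29 and 6.63 log2 CPM in the last libraries of mice 3334, 3336, 3338, 3341, 3357, 3368 and 3370, against 5.60, 7.12, 6.75, 7.30, 7.20, 7.21 and 7.22 log2 CPM at month 0. Cd3e was lower in 7 of 7 mice and changed by -1.71 ± 0.27 (SE, limma adjusted p = 0.00047). Cd4 had 2.95, 4.24, 3.04, 3.68, 4.97, 4.04 and 5.38 log2 CPM in the last libraries, against 4.90, 6.5, 6.01, 6.90, 6.62, 6.71 and 6.69 log2 CPM at month 0. Each mouse had less Cd4 at the end, and the change was -2.29 ± 0.29. Cd8a changed by -1.66 ± 0.31.

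The largest falls were those of Satb1 at -2.89 ± 0.27, Cd40lg at -2.88 ± 0.39, Lef1 at -2.66 ± 0.28, Trat1 at -2.38 ± 0.33 and the kinase gene Txk at -2.37 ± 0.32. All 30 genes that fell were lower in every mouse, as were 30.7% of all genes. Foxp3 at -0.83 ± 0.35 (limma adjusted p = 0.071), Prkcq at 0.73 ± 0.29 (0.057), Gata3 at 0.86 ± 0.45 (0.14) and Fyn at 0.11 ± 0.23 (0.72) did not pass. Ikzf2 had 9.44, 8.83, 8.84, 8.91, 7.67, 3.49 and 7.90 log2 CPM in the last libraries, against 3.42, 4.43, 4.42, 4.61, 4.36, 3.73 and 4.18 log2 CPM at month 0. It rose by 3.70 ± 0.57 (SE, limma adjusted p = 0.00041), with mouse 3368, sampled last at month 10, as the 1 mouse in which it was lower. Lat rose by 1.05 ± 0.30 (SE, limma adjusted p = 0.0142) and was higher in 6 of 7 mice.

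Relative to the mean of the receptor complex genes, Ikzf2, Lat, Gata3, Prkcq and Fyn were higher in the last CM libraries, by 5.37, 2.71, 2.52, 2.39 and 1.77 on the log2 scale, and Satb1, Cd40lg and Lef1 were lower, by 1.22, 1.21 and 0.99. Over all genes, 50.4% were called higher and 7.76% lower in that fit. All 12 B cell and all 10 NK cell markers fell in the last libraries, 5 of 7 mast cell and basophil markers and 5 of 7 progenitor markers rose, and 4 of 8 erythroid markers rose. The 3 constant region genes fell, by 1.95 (Trbc1), 1.88 (Trac) and 1.80 (Trbc2) on the log2 scale, as did 16 of 20 further signalling genes and 8 of 10 recirculation and subset genes.

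T cell genes also fell in Ctrl mice at month 10, which is later than the last library of 6 of the 7 CM mice. There 32 of the 36 genes fell and 0 rose against month 0 of the same 7 Ctrl mice, but 72.7% of all genes were called lower. The members' median log2 change was -2.16, against -1.81 for all genes. Cd3e had a lowest, median and highest value of 2.90, 4.28 and 5.22 log2 CPM at month 10, against 6.22, 6.67 and 6.87 log2 CPM at month 0. The months did not overlap, and Cd3e changed by -2.26 ± 0.27, Cd4 by -2.42 ± 0.31, Lef1 by -2.91 ± 0.33 and Tcf7 by -2.80 ± 0.31. Cd28 fell less, by 0.86 on the log2 scale, and Foxp3 at -0.53 ± 0.43, Ikzf2 at -0.31 ± 0.29, Lat at 0.09 ± 0.18 and Prkcq at 0.01 ± 0.18 did not pass. Globin RNA took 4.22 to 38.5% of the reads at month 10 with a median of 31.2%, against a median of 1.02% at month 0. The summed CPM of the receptor complex had a median log2 change over the mice of -2.37, that of the B cell list -2.80 and that of the NK cell list -2.38, each lower at month 10 in 7 of 7 mice. The neutrophil list had -2.39 and was lower in 6 of 7 mice, while the erythroid list had 4.44 and the platelet list 3.24, each higher in 7 of 7. The part of these cells and of globin was not tested. With median-ratio size factors in place of library totals 19 members fell and 6 rose, so the counts depended on the scaling. The share of all genes called with those factors is not reported here, so that count has no background beside it.

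With each mouse's own change as the value, CM mice to their last library and Ctrl mice to month 6, 3 members differed between the arms and all were higher in CM mice, where 29.5% of all genes were called higher and 7.98% lower. They were Ikzf2 with a difference of 3.66 ± 0.69, Gata3 with 2.20 ± 0.61 and Prkcq with 1.0 ± 0.38. For the receptor and coreceptor genes, then, no difference between the arms in the late change was detected with this choice of month. It depended on that choice. Against the Ctrl change to month 5, 31 members were lower and 1 higher in CM mice, where 26.3% of all genes were called lower and 7.68% higher. Against that to month 7, 21 were lower and 2 higher, where 15.7% of all genes were called lower and 8.42% higher. Without Ctrl mouse 3350, 1 member passed, and without 3349 or 3339, 6 and 5 did.

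**Figure D2:**
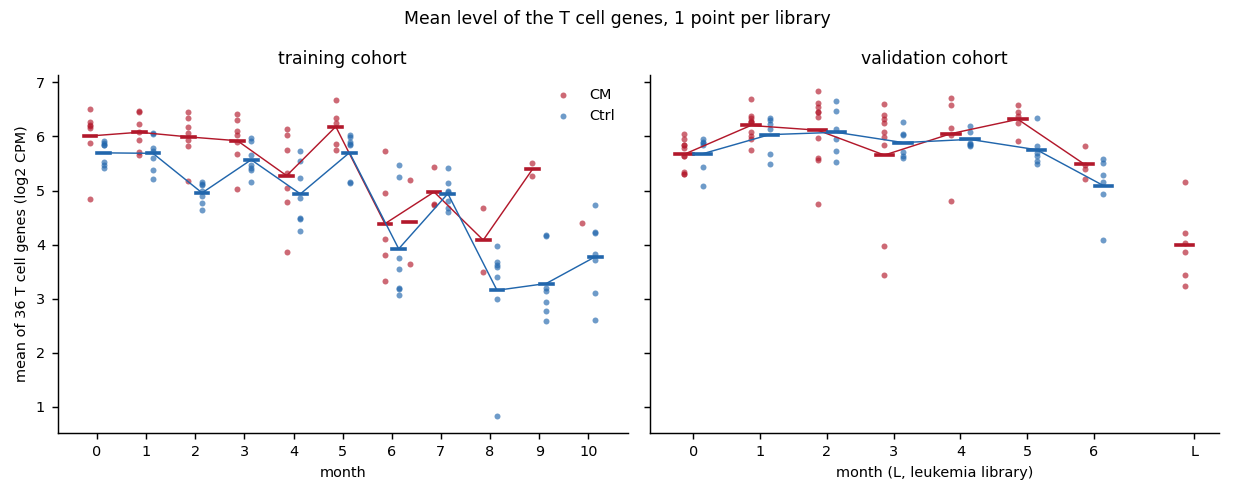
Mean log2 CPM of the 36 T cell genes in each library by month, for CM mice (red, left of each pair) and Ctrl mice (blue), with the training cohort and the validation cohort in separate panels. The training Ctrl mean sits at 4.96 at month 2 and at 3.78 at month 10, and the leukemia libraries lie between 3.24 and 5.15.

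The largest difference between the arms before the late libraries was at month 2 of the training cohort. There 32 of the 36 genes were higher in CM mice and 0 lower, where 5.46% of all genes were called higher and 6.25% lower. The members' median log2 difference was 1.16, against -0.09 for all genes, and for 13 members the 7 CM libraries all lay above the 7 Ctrl libraries, as for 2.13% of all genes. All 4 receptor complex genes, all 3 coreceptor genes, 8 of 9 surface genes, 11 of 12 signalling genes, 4 of 5 transcription factors and 2 of 3 regulatory genes were higher.

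Cd3e had a lowest, median and highest value of 5.92, 6.82 and 7.58 log2 CPM in CM mice, against 5.33, 5.68 and 5.90 log2 CPM in Ctrl mice. The arms did not overlap, and the difference was 1.2 ± 0.20 (SE, limma adjusted p = 0.0023). Cd4 had 5.51, 6.49 and 7.05 log2 CPM in CM mice, against 4.48, 4.98 and 5.40 log2 CPM in Ctrl mice. Its difference of 1.49 ± 0.21 (SE, limma adjusted p = 0.0008) again came with no overlap. Cd8a had 4.95, 6.30 and 6.69 log2 CPM in CM mice, against 4.87, 5.23 and 5.49 log2 CPM in Ctrl mice, with 6 of 7 CM mice above the Ctrl mean and a difference of 0.91 ± 0.23 (SE, limma adjusted p = 0.0204). Foxp3 had 1.98, 2.47 and 2.63 log2 CPM in CM mice, against 1.26, 1.69 and 2.05 log2 CPM in Ctrl mice, and its difference was 0.78 ± 0.16.

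Cd40lg had the largest difference, 1.66 ± 0.36, followed after Cd4 by the calcium-dependent kinase gene Camk4 at 1.47 ± 0.24, Cd28 at 1.42 ± 0.25 and Themis, a gene of T cell selection, at 1.37 ± 0.28. Lat had the smallest adjusted p of the members, 1.7e-05 in limma, with 6.19, 6.35 and 6.60 log2 CPM in CM mice, against 5.02, 5.19 and 5.49 log2 CPM in Ctrl mice and a difference of 1.23 ± 0.10. Gata3 had 4.51, 4.78 and 5.42 log2 CPM in CM mice, against 3.41, 3.65 and 3.83 log2 CPM in Ctrl mice, with no overlap and a difference of 1.16 ± 0.13. The 4 genes that did not pass were Satb1 at 0.30 ± 0.19, Dgka, a brake on receptor signalling, at 0.29 ± 0.18, Il2ra at 0.09 ± 0.16 and Cd2 at -0.05 ± 0.17.

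**Figure D3:**
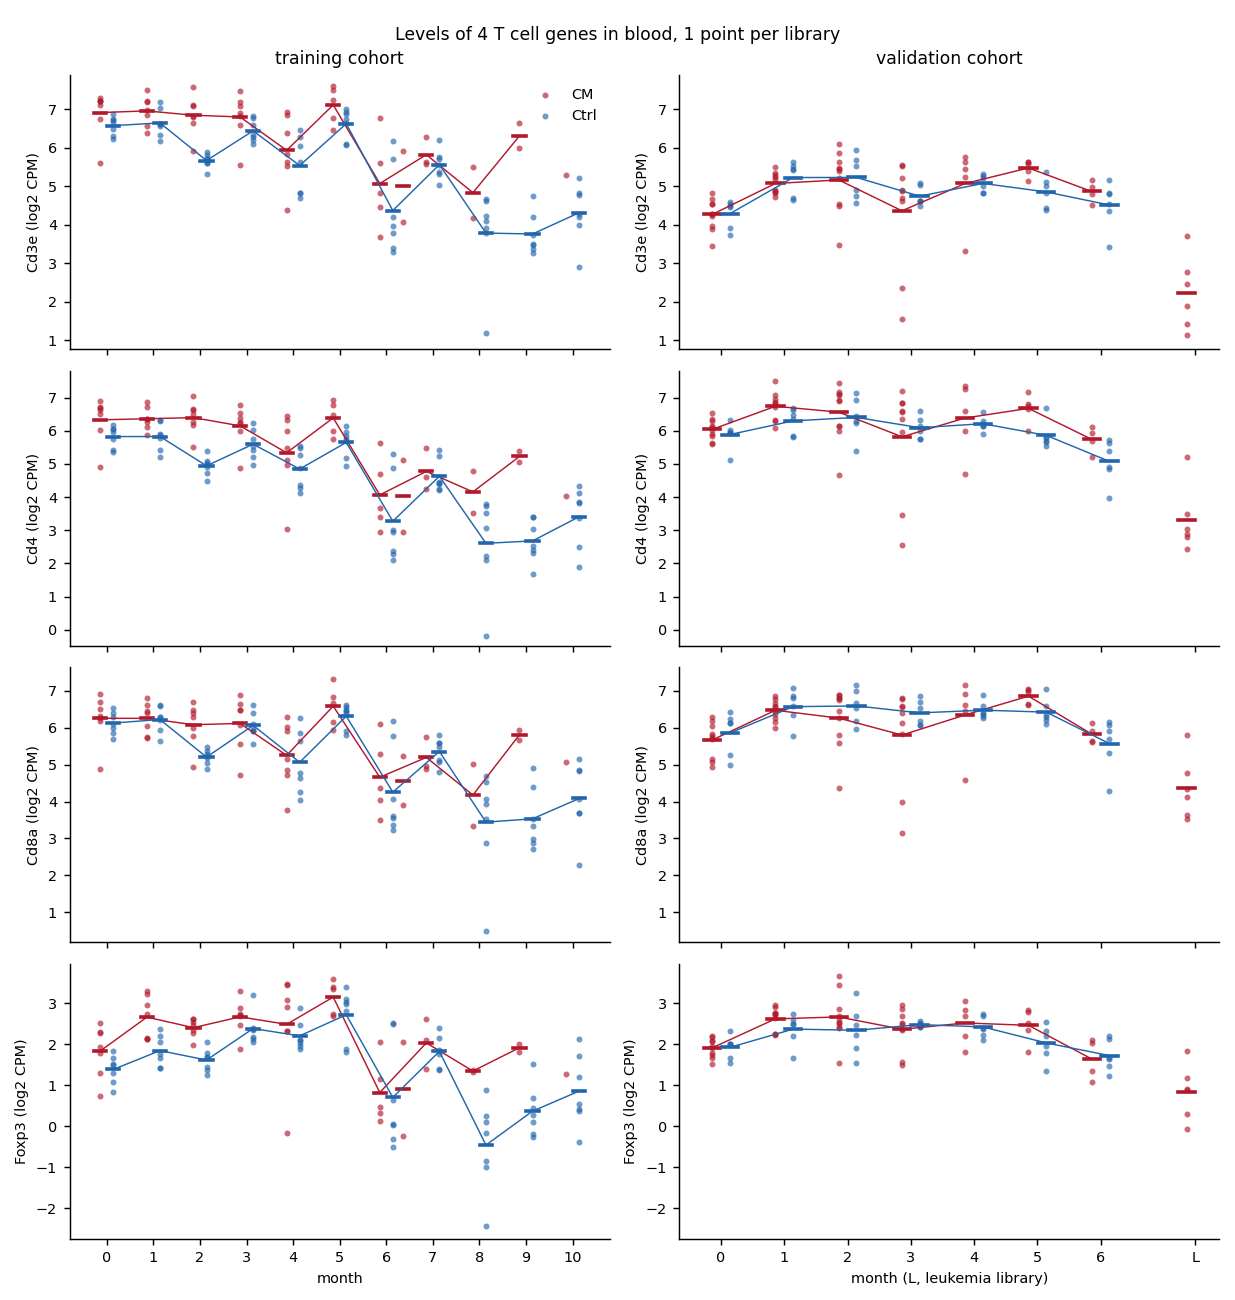
Log2 CPM of Cd3e, Cd4, Cd8a and Foxp3 by month, with CM mice in red to the left of Ctrl mice in blue, points for libraries and bars for means. The training cohort is on the left and the validation cohort with the leukemia libraries on the right, and the training Ctrl mean of Cd3e at month 2, 5.67, lies below those of months 1 and 3.

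The levels of the arms over time were set side by side. In CM mice Cd3e averaged 6.96 ± 0.39, 6.85 ± 0.51 and 6.80 ± 0.62 log2 CPM at months 1, 2 and 3 (SD, n = 7), and in Ctrl mice it averaged 6.65 ± 0.36, 5.67 ± 0.18 and 6.44 ± 0.28 log2 CPM (SD, n = 7). The CM means lay within 1 SD of each other, while the Ctrl mean stood lowest at month 2. At month 2 compared with month 1, 0 members were lower in every CM mouse and 25 in every Ctrl mouse, with medians of -0.08 in CM mice and -0.80 in Ctrl mice. Of all genes, 0.686% were lower in every CM mouse and 4.93% in every Ctrl mouse, with medians of 0.07 in CM mice and -0.01 in Ctrl mice. Against month 3, 30 members were lower at month 2 in every Ctrl mouse, with a median of -0.64, as were 7.8% of all genes. The summed CPM of the receptor complex had a lowest, median and highest value of 169, 332 and 522 in CM mice at month 2, against 107.6, 140 and 164 in Ctrl mice. In Ctrl mice it was 190, 255 and 349 at month 1 and 174, 239 and 341 at month 3.

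When the change from month 0 to month 2 was taken per mouse, 5 members differed between the arms (0.297% of all genes were called higher and 0.162% lower), which were Cd3g, Cd247, Tcf7, Cd3d and Cd6, with differences between 0.91 and 1.17. That count ran from 0 to 15 when 1 mouse was left out. It was 0 without 3349, 3350, 3357 or 3368, 2 without 3335, 3339, 3340, 3342 or 3346, 3 without 3336, 10 without 3334, 13 without 3370 and 15 without 3338. In 1 fit over months 0 to 6 with the mouse as a replicate block, 13 members were higher at month 2, and with the G tag of the library names as a further term 7 were. The shares of all genes called in those fits are not reported here, so the drop in count is not set against a background.

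Other lists moved at training month 2 as well. Of 12 B cell markers 9 were lower in CM mice and 0 higher, with a summed CPM of 3395, 6333 and 7250 (lowest, median, highest) in CM mice, against 8093, 9295 and 9797 in Ctrl mice. Of 8 erythroid markers 3 were higher, of 6 platelet markers 3, of 7 mast cell and basophil markers 2 and of 7 progenitor markers 5. Globin RNA took 0.341 to 7.04% of reads in CM mice, against 0.391 to 1.75% in Ctrl mice. Their part in the difference was not tested. The constant region genes Trbc2, Trac and Trbc1 were higher in CM mice by 1.36, 1.26 and 1.12 on the log2 scale. Of 20 further signalling genes 5 were higher and 2 lower, and of 10 recirculation and subset genes 3 were higher, the receptors Icos at 1.09 and Ctla4 at 0.99 and the factor Rora at 0.78. Relative to the receptor complex genes, 10 other members were lower in CM mice and 0 higher, with Cd2 at -1.29, Il2ra at -1.14, Dgka at -0.94 and Satb1 at -0.93, where 81% of all genes were lower and 0.454% higher in that fit.

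The month 2 difference was not seen in the validation cohort, where 0 members passed in limma with 10 CM and 6 Ctrl mice (0.147% of all genes were called higher), 2 at an unadjusted p under 0.05 and 0 with voom on the recovered reads. The 2 were Ikzf2 at 1.77 ± 0.58 and Gata3 at 0.63 ± 0.28. Cd3e had 3.47, 5.42 and 6.11 log2 CPM (lowest, median, highest) in CM mice, against 4.57, 5.21 and 5.95 log2 CPM in Ctrl mice. The arms overlapped, with a difference of -0.07 ± 0.32, and those of Cd4, Cd8a and Foxp3 were 0.16 ± 0.33, -0.33 ± 0.32 and 0.32 ± 0.29. The difference between the cohorts was not tested.

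At month 1 few members differed with values scaled to library totals, and the same gene led in both cohorts. In the training cohort 3 members were higher in CM mice and 0 lower, where 3.68% of all genes were called higher and 1.34% lower. Ikzf2 had a lowest, median and highest value of 4.27, 4.93 and 6.16 log2 CPM in CM mice, against 3.21, 3.8 and 3.96 log2 CPM in Ctrl mice. The arms did not overlap, and the difference was 1.24 ± 0.23 (SE, limma adjusted p = 0.0063). Prkcq had 7.23, 7.49 and 7.68 log2 CPM in CM mice, against 6.28, 6.83 and 7.05 log2 CPM in Ctrl mice, again with no overlap and a difference of 0.63 ± 0.12. Lat differed by 0.46 ± 0.12 (SE, limma adjusted p = 0.0446). Cd3e at 0.19 ± 0.17, Cd4 at 0.42 ± 0.17, Cd8a at -0.09 ± 0.18 and Foxp3 at 0.65 ± 0.21 did not pass. Without CM mouse 3336, 5 members passed. Under median-ratio size factors, which shift the median of all genes by more than 0.1, 19 members were higher. With TMM factors 19 were called as well. The share of all genes called with either set of factors is not reported here, so these counts have no background beside them.

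In the validation cohort at month 1, 1 member was higher and 0 lower, where 7.95% of all genes were called higher and 20.6% lower, and it was Ikzf2. It had 4.63, 5.83 and 6.71 log2 CPM in 10 CM mice, against 3.68, 4.59 and 4.98 log2 CPM in 6 Ctrl mice. All 10 CM mice lay above the Ctrl mean, and the difference was 1.33 ± 0.29 (limma adjusted p = 0.0066). Cd3e at -0.15 ± 0.13, Cd4 at 0.44 ± 0.18, Cd8a at -0.10 ± 0.15 and Foxp3 at 0.25 ± 0.16 did not pass. Without CM mouse 2700, 2685 or 2709, 6, 5 and 4 members passed, and without Ctrl mouse 2705, 2 did.

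Relative to the receptor complex genes at month 1, Ikzf2 was higher in CM mice, by 1.0 (training) and 1.15 (validation). In the training cohort 3.78% of all genes were higher and 39.6% lower in that fit, and in the validation cohort 2.85% and 5.03%. Satb1, Cd8a and Cd8b1 were lower in the training cohort, by 0.34, 0.33 and 0.27, and Cd2 in the validation cohort, by 0.45.

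**Figure D4:**
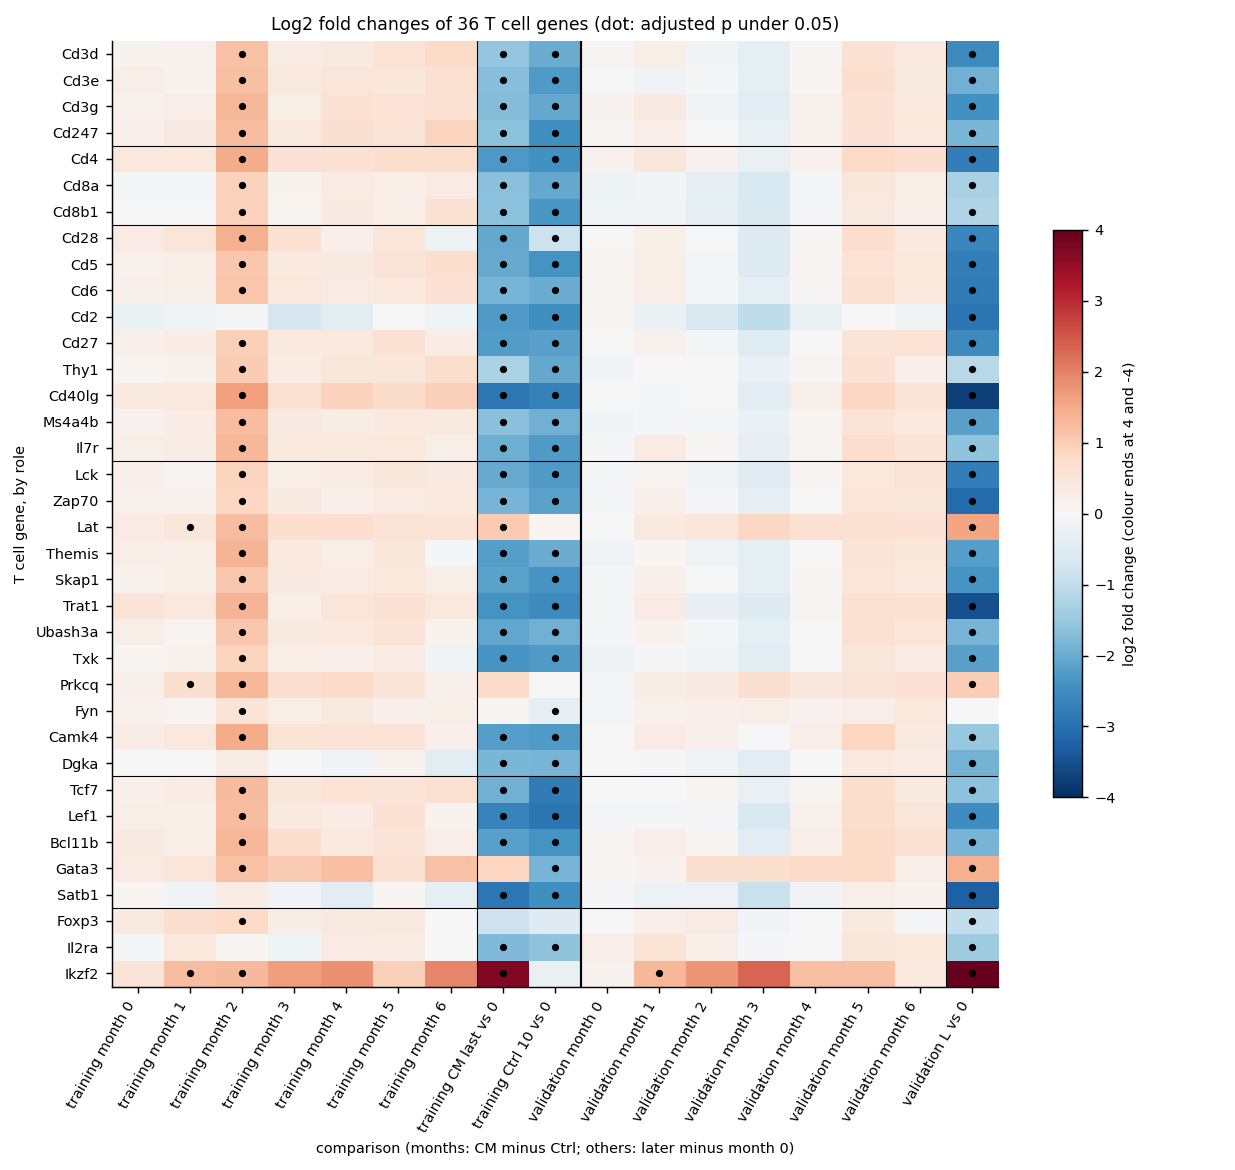
Log2 differences of the 36 T cell genes, grouped by role, in 17 comparisons, with colour ends at -4 and 4 and a dot where the limma adjusted p was under 0.05. Training month 2 is the column with 32 higher genes among the arm comparisons. The columns for the last libraries of CM mice and for leukemia are mostly lower apart from Ikzf2, Lat, Prkcq and Gata3. In the late change within Ctrl mice Gata3 is lower as well, at -1.87, and Ikzf2 stands at -0.31.

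Before induction, at month 0, 0 members passed in either cohort in limma, with 2 (training) and 0 (validation) at an unadjusted p under 0.05, and 0 with voom in both. Of all genes 0.0054% were called higher at training month 0. At months 3 to 6, 0 members passed in either cohort, with 0 under voom as well. Fewer CM mice were left at the later months, and training mice 3338 and 3357 had no library after month 4. The residual degrees of freedom were 11 at training months 3 and 4 and 9 at months 5 and 6. In validation they were 12 at month 3 and 8, 8 and 7 at months 4, 5 and 6, so these months could detect less. Of all genes 0.313% were called higher and 0.319% lower at training month 3, 0.0054% higher at month 4 and 0.0162% higher at month 6. The changes from month 0 to months 1 and 3 likewise gave 0 members in limma, with 2 and 0 at an unadjusted p under 0.05, where 1% and 0.027% of all genes were called higher. At training month 3 the differences of Cd3e, Cd4, Cd8a and Foxp3 were 0.38 ± 0.25, 0.56 ± 0.28, 0.14 ± 0.29 and 0.30 ± 0.24, and 7 members had an unadjusted p under 0.05. At months 4, 5 and 6 of the training cohort 3, 13 and 1 members did (8.55% of all genes at month 5). At month 5 of the validation cohort 32 did, as did 8.59% of all genes, with a median difference of 0.56 for the members, against 0.05 for all genes. At months 3, 4 and 6 of the validation cohort 5, 1 and 0 did. Apart from month 5, the share of all genes at an unadjusted p under 0.05 is not reported here, so those counts have no background beside them. At validation month 3 the same 4 genes differed by -0.37 ± 0.58, -0.28 ± 0.67, -0.59 ± 0.54 and -0.11 ± 0.23. A pair of CM mice stood low there, mouse 2690 with Cd3e at 2.34 and Ikzf2 at 9.83 log2 CPM and mouse 2719 with Cd3e at 1.54 and Ikzf2 at 10.30 log2 CPM.

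Ctrl mice were also compared between month 1, after poly(I:C), and month 0. In the training cohort 0 members passed in limma, with 1 at an unadjusted p under 0.05 and 0 with voom. In the validation cohort 11 rose and 0 fell, where 25.7% of all genes were called higher and 7.58% lower, and the labels put the 2 times in different sequencing runs, so run and time cannot be told apart. Cd3e had a lowest, median and highest value of 4.66, 5.44 and 5.62 log2 CPM at month 1, against 3.73, 4.47 and 4.60 log2 CPM at month 0, and rose by 0.94 ± 0.17 (SE, limma adjusted p = 0.0064). The other 10 were Thy1 at 0.99 ± 0.18, Cd8a, Tcf7, Bcl11b, Cd8b1, Cd27, Cd5, Cd6, Dgka and Foxp3, with changes between 0.44 and 0.71. With median-ratio size factors 4 passed, and without 2689, 2692, 2705 or 2720 the count was 3, 4, 7 and 5.

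The balance of Cd4 to Cd8a RNA differed between the arms. It was measured as log2 CPM of Cd4 minus that of Cd8a in the same library, which does not depend on library scaling, and a difference between groups in it is a difference of log2 ratios. In the training cohort at month 1 it averaged 0.11 ± 0.15 in CM mice and -0.40 ± 0.17 in Ctrl mice (SD, n = 7 each), a difference of 0.50 (exact two-sided permutation test, p = 0.000583, 0.00466 adjusted over 8 comparisons). At month 2 it averaged 0.31 in CM mice and -0.26 in Ctrl mice, a difference of 0.58 (exact, adjusted p = 0.00466). At month 3 it averaged 0.03 in CM mice and -0.47 in Ctrl mice, a difference of 0.50 (exact, adjusted p = 0.00839). The validation cohort had differences of 0.54 at month 1 and 0.49 at month 2 (exact, adjusted p = 0.00839 for each) and of 0.33 at month 3 (exact p = 0.0783).

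A difference in the same direction was measured before induction. At month 0 the balance averaged 0.07 in CM mice and -0.30 in Ctrl mice of the training cohort (exact permutation p = 0.0245), and 0.38 in CM mice and 0.03 in Ctrl mice of the validation cohort (exact permutation p = 0.0485). Neither passed after adjustment over 8 added comparisons (0.194 for each). Without mouse 2731, whose month 0 library did not match its sex label, the validation CM mean was 0.29, with a difference of 0.27 (exact permutation p = 0.0775). The change from month 0 did not differ detectably between the arms at months 1 to 3 in either cohort, with differences of 0.06 to 0.20 and exact permutation p between 0.247 and 0.796. Within each sex the difference was positive at months 0 to 3 in both cohorts, and it was smallest in validation males at month 0, at 0.01. In validation females at month 0 it was 0.68, or 0.53 without mouse 2731.

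In the late CM and L libraries the balance was lower than at month 0. It averaged -0.55 in the last training CM libraries and 0.07 at month 0 of the same mice, lower in 6 of 7 mice (exact permutation, adjusted p = 0.0357). It averaged -1.06 in the L libraries and 0.41 at month 0 of the same mice, a difference of -1.48 that was negative in 6 of 6 (exact permutation p = 0.03125, the smallest that 6 pairs allow, 0.0357 adjusted). Without mouse 2731 the difference was -1.43 and negative in 5 of 5, where 5 pairs cannot give a p below 0.0625, so the call does not hold without this mouse. Set against month 1 of the same 6 mice, the mean difference was -1.58, negative in 6 of 6 (exact permutation p = 0.03125, not adjusted). In Ctrl mice at month 10 the change from month 0 averaged -0.37, with 4 of 7 mice lower and a range of -1.39 to 0.74. The replacement of Cd8a by Cd8b1 left all 8 calls on the same side.

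**Figure D5:**
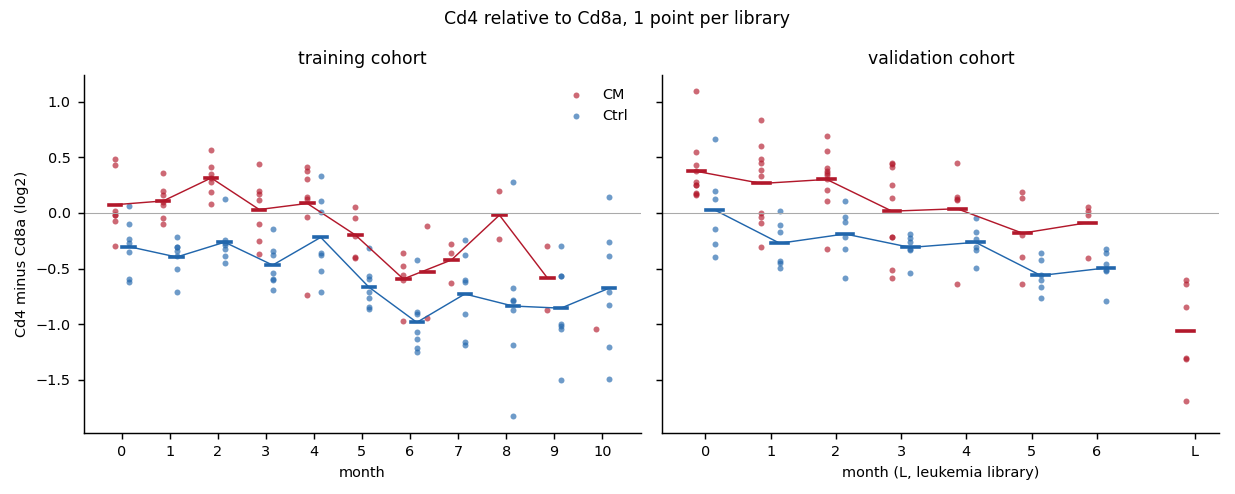
Log2 CPM of Cd4 minus log2 CPM of Cd8a by month, with CM mice in red left of Ctrl mice in blue and bars for means, for both cohorts. CM means lie above Ctrl means at months 0 to 3 in both cohorts, and the leukemia libraries average -1.06.

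Most members followed the receptor complex across libraries. The correlation of each member with the mean of the 4 receptor complex genes, which share library and depth with it, was above 0.9 for 27 of 36 members over the 55 training CM libraries and for 28 over the 77 training Ctrl libraries. It was above 0.9 for 25 members over the 68 validation CM libraries and for 10 over the 48 validation Ctrl libraries. The 4 receptor complex genes are themselves among the 36, and each of them was set against the mean of the others. The validation libraries of months 0 and 1 and of leukemia were unstranded and the others stranded. Within the 26 unstranded and the 42 stranded CM libraries the count was 22 each, and within the 12 unstranded and 36 stranded Ctrl libraries it was 18 and 13. Over all training CM, training Ctrl, validation CM and validation Ctrl libraries, the medians were 0.94, 0.97, 0.93 and 0.84. With the B cell gene Cd79a, Cd3e had 0.85, 0.73, 0.46 and 0.05 in the same order. In training CM libraries only Cd2 and Satb1 followed Cd79a more closely than the receptor complex, at 0.95 against 0.91 and 0.92 against 0.89. The part of other blood cells in these correlations was not tested. Ikzf2 did not follow the receptor complex, at 0.00 in training CM and -0.29 in validation CM libraries. Its correlation with Kit, the receptor by which the labels define blasts, was 0.89 in training CM and 0.94 in validation CM libraries. With Kit, Lat had 0.49 and 0.83, Prkcq 0.43 and 0.77 and Gata3 0.71 and 0.67 in those libraries, which hold several libraries of each mouse. In training and validation Ctrl libraries the correlation with Kit was 0.57 and 0.39 for Ikzf2, -0.11 and -0.14 for Lat, -0.09 and -0.01 for Prkcq and 0.70 and 0.18 for Gata3. Cd3e had -0.11 with Kit in training CM libraries and 0.70 in training Ctrl libraries.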

How the data were processed

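Blood RNA of 248 libraries was sequenced in bulk. The values deposited by the authors, a table for each cohort, are log2 CPM. STAR, Subread with featureCounts, edgeR and the build GRCm38 are named, without versions, per the submitters' processing notes. Per the labels' protocols the training libraries were made from total RNA with ribosomal RNA removed and the validation libraries with another kit. A prior of 0.25 reads had been added, and turning the values back gave whole reads for 100% of values (tolerance 0.01 reads). A count of 0 is read as up to 3 reads, for counting error only. With 0 reads a gene sits near -6.52 in the training and -6.30 in the validation table.

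Each comparison was fitted on all genes of its table in R 4.3.3 by limma 3.58.1, whose moderated two-sided tests used a trend with mean level. Sex was a covariate between arms and the mouse a block within mice, where the pairing comes from repeated bleeds of the same animal. Counts and group levels use Python 3.11.15, numpy 2.4.6, pandas 2.3.3, scipy 1.17.1 and matplotlib 3.10.9. Cd4 minus Cd8a was tested by exact permutation over mice. An edgeR quasi-likelihood test on counts had been planned but was not run, because the deposited unit is log2, and limma with voom on the recovered reads was added after seeing the data, as were the other Ctrl months, the relative fits, the balance at month 0 and by sex, the values without mouse 2731 and those by library preparation. The G tag is a code in the training library names whose meaning the labels do not give. Named genes are the receptor complex, coreceptor and Foxp3 values in each comparison and the called members with the largest changes and those that did not pass, and some genes of the lists are not reported here by name. The members and gene lists were chosen with earlier results of these data known. Alternatives were other size factors, a floor on mean level, a prior of 2 reads, fits without sex or without the block, fits over all months and leaving out each mouse. On simulated data with 200 changed genes, a log2 change of 1 was recovered in 35% of cases for training month 2 among 18508 genes and in 60% for leukemia among 13607 genes, and a log2 change of 2 in 98% and 100%. Of the genes called there, 6.99% and 6.98% had not been changed. The simulated reads had the same dispersion for every gene, no mouse effect and few changed genes, so these rates need not hold for the real libraries.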

Additional observations from a re-analysis of the deposited data

Results flagged for a closer look

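Among the groups of 4 to 10 libraries, examined for Cd3e, Cd4, Cd8a, Foxp3, Ikzf2 and Lat, 10 (9.26%) had a lowest or highest library that stood far from the others, where chance gives about 5%. Mouse 3334 stood low at month 0 in the training CM group, with Cd3e at 5.60 against 6.75 for the nearest other mouse and Cd8a at 4.88 against 6.20. Mouse 3338 stood low for Cd4 at month 3 of that group, at 4.89 against 5.99. Mouse 3342 stood high for Foxp3 at month 3 of the training Ctrl group, at 3.21 against 2.40. In the validation CM group at month 2, mouse 2731 was low for Cd4 at 4.67 against 6.00 and for Cd8a at 4.37 against 5.59, and high for Lat at 7.98 against 7.12. In the validation Ctrl group, mouse 2702 was low at month 0 for Cd4 at 5.11 against 5.93 and for Lat at 5.56 against 6.22, and mouse 2692 was high for Ikzf2 at month 2, at 5.97 against 5.13. All are log2 CPM.

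The change from month 0 to month 2 differed between CM and Ctrl mice of the training cohort, by the test of the difference itself in limma, for Tcf7 (1.04 ± 0.17), Cd3g (1.17 ± 0.23), Cd247 (1.05 ± 0.17), Cd6 (0.91 ± 0.18) and Cd3d (1.02 ± 0.19). The change to the last library in CM mice differed from that to month 6 in Ctrl mice for Ikzf2 (3.66 ± 0.69), Gata3 (2.20 ± 0.61) and Prkcq (1.0 ± 0.38). With 1 mouse left out, the count for month 2 ran from 0 to 15 and that for the late change from 1 to 6. The late result also depended on the Ctrl month set against it, as given above.

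The weekly libraries entered no comparison. Ikzf2 stood at 10.12 log2 CPM in the CM library of mouse 3130 at week 25, and its highest value in the weekly Ctrl libraries was 4.73 log2 CPM.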

How the results depend on the processing

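Of 456 alternative values for the 24 counts of members called, 393 stayed within 1.5 times, and these include counts of 0 that stayed at 0. Of 988 alternatives for 65 named values, 865 kept their call and 0 reversed; of 17 for Cd4 minus Cd8a, 16 kept theirs, and leukemia without mouse 2731 lost it at -1.43. At training month 1 (3 called) median-ratio and TMM factors each gave 19, 1 fit over months with the replicate block 0, that fit with the G tag 0, the fit without sex 5 and leaving out 1 mouse 2 to 5. At month 2 (32) the replicate block gave 13, with the G tag 7, and the fit relative to receptor genes 10. At month 3 (0) median-ratio, TMM and the fit without sex gave 2 each, the block 1, with the G tag 1, the relative fit 1, and leaving out 1 mouse 0 to 2. At month 4 (0) the block gave 4, and at month 6 (0) 3, or 2 with the G tag. The change to month 2 (5) gave 13 with median-ratio, 14 with TMM, 1 without sex and 0 to 15 leaving out 1 mouse. The late change against Ctrl (3) gave 9, 7, 32 (Ctrl month 5), 23 (Ctrl month 7) and 1 to 6 leaving out 1 mouse, the 9 and 7 being median-ratio and TMM. In validation, Ctrl month 1 (11) gave 4 with median-ratio, TMM or no replicate block and 3 to 9 leaving out 1 mouse. CM month 1 (1) gave 5, 5, 0 with the block, 2 relative, and 1 to 6. Month 2 (0) gave 1 and month 3 (0) 4 with the block. The relative fits gave 8 for the last libraries (32), 8 for Ctrl month 10 (32) and 13 for leukemia (35). The correlation of libraries of a mouse was 0.02 in training, 0.011 with the G tag and 0.175 in validation. Where a count moved, the cause was not tested. Apart from the relative fits and the Ctrl months 5 and 7, shares of all genes called are not reported for these alternatives. Their counts are therefore not set against a background. The planned edgeR count test was not run.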

Other observations

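The weekly libraries of the validation cohort came from 3 further CM mice and 2 further Ctrl mice and were not tested. In CM mouse 3200, Cd3e stood at 5.54, 4.11 and 3.57 log2 CPM at weeks 10, 14 and 18, while Ikzf2 stood at 6.72, 9.05 and 9.68. In CM mouse 3130, Cd3e stood at 5.40, 3.31 and 1.07 log2 CPM at weeks 20, 24 and 25, and in CM mouse 3131 at 5.11, 4.58 and 1.19 log2 CPM at weeks 20, 24 and 28. Cd4 in mouse 3131 stood at 6.81, 5.68 and 1.82 log2 CPM at those weeks. The 6 weekly Ctrl libraries held Cd3e between 4.50 and 5.07 log2 CPM and Ikzf2 between 4.34 and 4.73 log2 CPM. In each of the 3 CM mice the last weekly library had the lowest Cd3e of that mouse.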
